A study of Mus musculus with 27 samples.

Results

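P2 cells were sorted as Prx1+ CD45- CD105- CD200-. Here those sorted from the periosteum, the membrane on the outer face of bone, were compared with those sorted from bone marrow. The comparison used all 3 periosteum and all 3 bone marrow libraries labelled P2, 6 of the 27 libraries of the series, and every gene of the table. The mice were Prx1-CreER/Ai14/Rag1 animals of both sexes, 8 to 12 weeks old. They received tamoxifen, and cells were taken from the hindlimbs 3 days after the last dose. In this line a tamoxifen-inducible Cre under the Prx1 promoter turns on tdTomato from the Ai14 reporter in Prx1-expressing cells and their descendants, and the Rag1 mutation, carried by both groups, leaves the animals without mature B and T cells. Marrow was flushed from the femur and tibia without enzymes, whereas periosteum was scraped from the bone and digested with collagenase for 20 min at 37°C, so that tissue and cell preparation cannot be told apart. The remaining 21 libraries were P1 cells (CD105- CD200+), P3 cells (CD105+) and muscle cells, of which the P1 and P3 libraries of the same tissues are used below to ask what was particular to P2. Per the study's design all tissues came from the same animals, but the labels do not say which library came from which mouse, so the p-values below measure the spread between these libraries only.

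Periosteum feeds bone growth and repair through its inner layer of skeletal progenitors and its outer fibrous layer, and it lies beside ligament, tendon and growth cartilage. Bone marrow is dominated by developing blood cells, among which stromal cells that support them are rare. Red cell precursors and some early progenitors carry little or no CD45, so a CD45- gate does not by itself remove all blood cells.

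The label was checked against the genes behind the sort. The row of the table named as a transgene held 13598, 9235 and 13517 normalized counts in periosteum replicates 1 to 3 and 1296, 1234 and 1181 in bone marrow replicates 1 to 3. It was higher in every periosteum library (log2 fold change 3.27, SE 0.34, adjusted p = 0.00558). Group means were 16875 in periosteum and 34676 in marrow for P1 and 9718 and 5324 for P3, and the P2 fold change exceeded the mean of the P1 and P3 fold changes by 3.33 (SE 0.38, adjusted p = 0.000148). What sequences this row counts is not given in the sources used here. Prrx1, which encodes Prx1, was at 2377, 64.0 and 302 in periosteum and at 90.8, 69.0 and 170 in marrow, so the groups overlapped and periosteum replicate 1 stood above the other 5 libraries. Ptprc, which encodes CD45, was at 18.5, 32.0 and 184 in periosteum and at 312, 690.2 and 829 in marrow, without overlap but not called (log2 fold change -3.52, SE 1.08, adjusted p = 0.0971). Eng, which encodes CD105, lay between 11.8 and 249 and Cd200 between 7.24 and 72.6 over the 6 libraries, both overlapping between the tissues. In P3, sorted as CD105+, Eng had a mean of 5765 in periosteum and 1195 in marrow. In P1, sorted as CD200+, Cd200 had a mean of 3064 in periosteum and 6725 in marrow.

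Totals of normalized counts ran from 13999786 to 24072005 in periosteum and from 17678663 to 26232142 in marrow, and 13104 to 15369 genes were above 0 in periosteum against 18543 to 21676 in marrow. Across the genes tested, the marrow libraries resembled each other more (Pearson r of 0.751 to 0.830 across genes) than the periosteum libraries did (0.564 to 0.606). The latter were hardly closer to each other than to marrow (0.50 to 0.581). Globin genes took 24.0%, 38.5% and 32.1% of the periosteum totals and 44.2%, 47.3% and 44.4% of the marrow totals, with means of 31.6% ± 7.27 (SD, n = 3) and 45.3% ± 1.76 (SD, n = 3). All 3 marrow libraries were above all 3 periosteum libraries, and the two-sided exact permutation test gave p = 0.1, the smallest that 3 against 3 allows. In the P1 and P3 libraries of the same tissues, globins took between 0.117% and 4.28% of the totals.

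Of 15582 genes with at least 10 normalized counts in at least 3 of the 6 libraries, 1453 (9.32%) differed between the tissues. Such calls needed a log2 fold change beyond 1.5 in size and a limma p-value, adjusted by Benjamini-Hochberg, under 0.05. Higher in periosteum were 396 genes (2.54%) and lower 1057 (6.78%). All fold changes are on the log2(normalized count + 1) scale, positive where periosteum was higher. The median over all genes tested was -1.02, so each list below is to be read beside that value. The lists share some genes, and members described for their role beyond the stated rule were chosen after their values were seen. With quantile normalization, which moved this median to -0.16, the calls were 423 higher and 216 lower, that is 66.2% higher in place of 27.3%. When each library was left out in turn, the count rose to 2354 without periosteum replicate 1, of which 1932 were lower, and the number of higher genes fell to 222 without bone marrow replicate 1 and to 260 without bone marrow replicate 3.

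The lower calls rested largely on genes with little signal. In 654 of the 1057, all 3 periosteum libraries were listed at 0. These were all the tested genes at 0 throughout periosteum, so a gene that entered only through marrow was always called. Among the 14917 genes not at 0 throughout either tissue, 385 (2.58%) were higher and 403 (2.70%) lower. Of all 1057, 726 (68.7%) had a marrow mean under 100. Among the 396 higher genes, only 11 were listed at 0 throughout marrow and 2 had a periosteum mean under 100. When the test was rerun on the 12409 genes with a mean of at least 50 over the 6 libraries, 268 were higher and 106 lower. The rerun makes every call anew, so genes with ample signal also lost their call. Of the 396 higher genes, only those 2 with a periosteum mean under 100 could have been removed by this filter itself. Families looked up after the values were seen also had more genes above 0 in marrow. Olfactory receptor genes, which belong to the nose, were above 0 for 92, 69 and 87 of 1047 genes in periosteum and for 207, 157 and 248 in marrow. Gene models and Riken identifiers were above 0 for 1388 to 1830 of 8392 entries in periosteum and for 2719 to 4261 in marrow, and 176 of the 1440 tested were lower in periosteum. Their part in the lower calls was not tested.

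**Figure D1:**
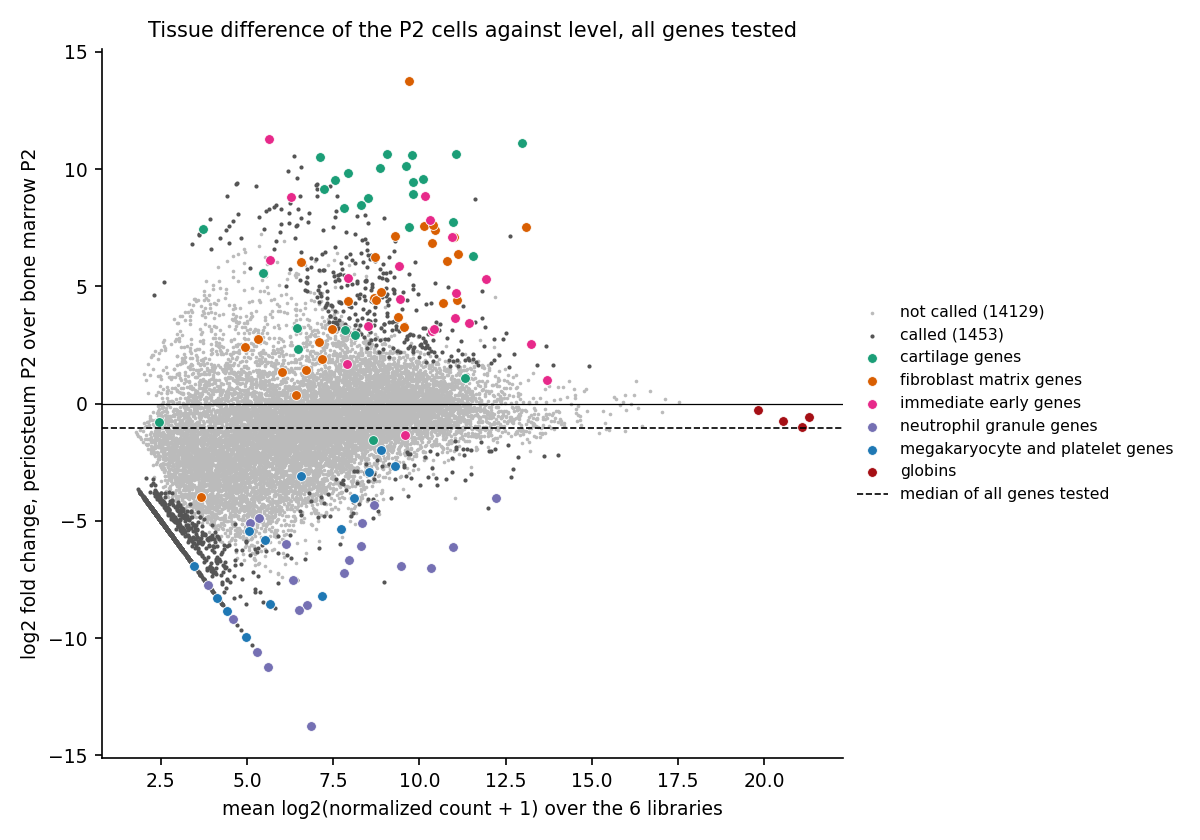
Each point is 1 of the 15582 genes tested, with its mean log2(normalized count + 1) over the 6 libraries on the x axis and its log2 fold change (periosteum P2 over bone marrow P2) on the y axis, and 6 gene lists in colour. Cartilage, fibroblast matrix and immediate early genes lie well above the dashed median of -1.02, neutrophil and megakaryocyte genes below it, and the straight lower edge is made of genes listed at 0 in all 3 periosteum libraries.

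Cartilage genes had the highest median fold change of the 30 gene lists. Of 28 tested, 20 were higher in periosteum, against 2.54% of all genes, none was lower, and the median log2 fold change was 8.61, or 8.77 over the 27 genes not listed at 0 throughout marrow. The summed level of the 30 listed genes was between 466814 and 1071518 in periosteum and between 3256 and 4958 in marrow. Col2a1, the main fibrillar collagen of cartilage, had 240598, 374590 and 590511 normalized counts in periosteum and 243, 70.8 and 290.0 in marrow. All periosteum values lay far above all marrow values (log2 fold change 11.09, SE 0.60, adjusted p = 0.000777). The partners of type II collagen moved with it. Col9a1, Col9a2 and Col9a3, the chains of type IX collagen, had log2 fold changes of 8.95, 9.45 and 10.64, and Col11a1 and Col11a2, chains of type XI collagen, of 7.76 and 6.27. Comp, a matrix protein that links collagen fibres, was at 14414, 38674 and 50291 in periosteum and at 51.0, 28.0 and 41.7 in marrow (log2 fold change 9.57, SE 0.58, adjusted p = 0.000777). Acan, the large aggregating proteoglycan, was at 4937, 11478 and 7947 against 21.2, 5.64 and 35.6 (8.77, SE 0.80, adjusted p = 0.00332). For Comp and Acan too, the lowest periosteum value exceeded the highest marrow value. Sox9, the transcription factor that drives cartilage fate, was at 2291, 4382 and 6556 in periosteum and at 30.2, 0 and 61.2 in marrow (8.34, SE 1.51, adjusted p = 0.0112).

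The other cartilage genes that passed were Matn3, Fmod, Chad, Cnmd, Snorc, Ucma, Epyc, Mia, Hapln1, Scrg1 and Cytl1. Cytl1, a small secreted protein of cartilage, was listed at 0 throughout marrow and at 122, 1145 and 36.2 in periosteum. Sox5, Sox6, Matn1, Matn4, Prg4, Wwp2, Trps1 and Frzb did not pass. Prg4, lubricin of the joint surface, showed how uneven the periosteum libraries were, with 329, 2.10 and 7627. Ihh and Col10a1, made by chondrocytes as they enlarge, were too low to be tested, with Col10a1 at 0, 5.16 and 7.28 in periosteum. Under the 18 alternative settings 19 to 23 cartilage genes were higher and none was lower.

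Genes of fibroblast matrix also stood higher in periosteum. Of 29 tested, 18 were higher in periosteum, against 2.54% of all genes, and none was lower, with a median log2 fold change of 4.43. Mgp, matrix Gla protein, an inhibitor of mineral deposition, had the highest fold change of all 15582 genes. It was at 69624, 99253 and 129396 in periosteum and at 11.5, 0 and 27.5 in marrow (13.73, SE 1.14, adjusted p = 0.00218). Fn1, fibronectin, was at 48028, 182643 and 181492 against 858, 226 and 1348 (7.51, SE 0.77, adjusted p = 0.00558), which put periosteum replicate 1 below the other 2 yet far above marrow. Bgn, biglycan, was at 17828, 15893 and 29784 against 166, 315 and 275 (6.38, SE 0.44, adjusted p = 0.0011). Dcn, decorin, another small proteoglycan, had the opposite order within periosteum, with 43893, 5872 and 23558 against 164, 117 and 63.8 in marrow (7.40, SE 0.77, adjusted p = 0.00558). The type VI collagen genes Col6a1, Col6a2 and Col6a3, which form fine filaments around cells, had log2 fold changes of 7.12, 7.58 and 4.43. Nid2, a basement membrane protein, and Arsi, an arylsulfatase, completed the 10 genes with the largest changes in that direction, which also held Fosb and 6 cartilage genes. Nid2 was at 1888, 4380 and 3756 against 0, 8.43 and 0 (10.54, SE 1.32, adjusted p = 0.00665).

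Fibro-adipogenic and adventitial fibroblast genes, which mark the loose fibroblasts around vessels and in the outer layers of tissues, were uneven within periosteum. Of 18 tested, 8 were higher, against 2.54% of all genes, and none was lower, with a median of 3.16, and the summed level of the 20 listed genes was 241450 in periosteum replicate 1, 40729 in replicate 2 and 96078 in replicate 3, against 4481 to 7221 in marrow. Ly6a, which encodes Sca-1, was at 22832, 2274 and 3276 in periosteum and at 14.3, 18.3 and 31.5 in marrow (8.03, SE 0.96, adjusted p = 0.00665). Gsn, gelsolin, was at 134334, 28498 and 69920 against 159, 165 and 131 (8.73, SE 0.57, adjusted p = 0.00104). Both were highest in periosteum replicate 1, the library that was lowest for Col2a1, Comp and Fn1. Pi16 and Dpp4, which mark universal fibroblasts, were near 0 in periosteum replicate 2 alone or with replicate 3, at 2490, 4.03 and 1037 for Pi16 and at 3581, 10.3 and 29.3 for Dpp4, and overlapped with marrow. Without periosteum replicate 2, 13 of these genes were called higher, and 5 without bone marrow replicate 1 or replicate 3. Pdgfra, a growth factor receptor of mesenchymal progenitors, was at 2001, 939 and 963 in periosteum and at 115, 87.5 and 173 in marrow (3.33, SE 0.63, adjusted p = 0.0132). Among 7 tendon genes, Fmod, Egr1 and Tppp3 were higher, against 2.54% of all genes. Fmod is also in the cartilage list and Egr1 in the list of immediate early genes. Tnmd and Scx, the defining tendon genes, were at most 12.7 and at 0 in the 6 libraries.

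Bone-forming genes differed less. Of 25 osteoblast and ossification genes tested, 4 were higher in periosteum, against 2.54% of all genes, none was lower and the median was 1.01. Sparc, osteonectin, a collagen-binding protein of bone and other matrices, was at 51133, 74846 and 106567 in periosteum and at 611, 449 and 542 in marrow (7.13, SE 0.38, adjusted p = 0.000777). The others were Smpd3, a sphingomyelinase needed for bone mineral (4.71, SE 0.68), Col1a2 (2.99, SE 0.57) and Pth1r, the parathyroid hormone receptor, at 1303, 2252 and 1097 against 58.2, 0 and 0 (8.57, SE 1.78, adjusted p = 0.0201). Without bone marrow replicate 2 or replicate 3, only 2 of the 25 passed. Col1a1 was at 5699, 4942 and 8924 against 3806, 1013 and 2133, without overlap but short of the threshold (1.64, SE 0.54, adjusted p = 0.117). Spp1, osteopontin, was at 4027, 49732 and 57692 in periosteum and at 15403, 221 and 269 in marrow, so bone marrow replicate 1 was above periosteum replicate 1. Runx2, Sp7, Bglap and Ibsp, regulators and late products of osteoblasts, overlapped between the tissues. Alpl was not called, with a log2 fold change of 2.38 to 3.69 when 1 library was left out. All 3 periosteum libraries lay above all 3 marrow libraries for 7 of the 25 osteoblast and ossification genes, against 7.91% of all genes. Of the 15 mesenchymal and osteogenic genes that the study names, 3 were higher in periosteum, against 2.54% of all genes. They were Ly6a, Pdgfra and Ctsk. Ctsk, the collagen-cutting protease cathepsin K, was at 283, 740 and 1749 against 50.6, 66.7 and 12.7 (4.30, SE 1.07, adjusted p = 0.0449). Ctsk passed in 7 of the 18 alternative settings.

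Among stromal genes typical of marrow, few single genes passed. Cxcl12, the chemokine that retains blood progenitors, was at 449, 702 and 526 in periosteum and at 936, 2368 and 627 in marrow, and Lepr, the leptin receptor, at 415, 210.5 and 239 against 488, 346 and 399. Both genes overlapped between the tissues. In P1 and P3 marrow the mean of Cxcl12 was 57186 and 53121. Of 14 marrow stroma niche genes tested, only Adipoq, an adipocyte hormone also made by marrow stroma, passed, at 1.67, 1.71 and 0 in periosteum and at 51.0, 296 and 74.6 in marrow (-5.77, SE 1.25, adjusted p = 0.0251), against 6.78% of all genes lower, and the median of the list was -2.95. Adipoq did not pass without bone marrow replicate 1 or 3 or periosteum replicate 3, and 2 genes did without periosteum replicate 1. All 3 periosteum libraries lay below all 3 marrow libraries for 5 of the 14, against 19.7% of all genes. In bulk libraries, fewer cells of a type and less RNA per cell cannot be told apart.

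**Figure D2:**
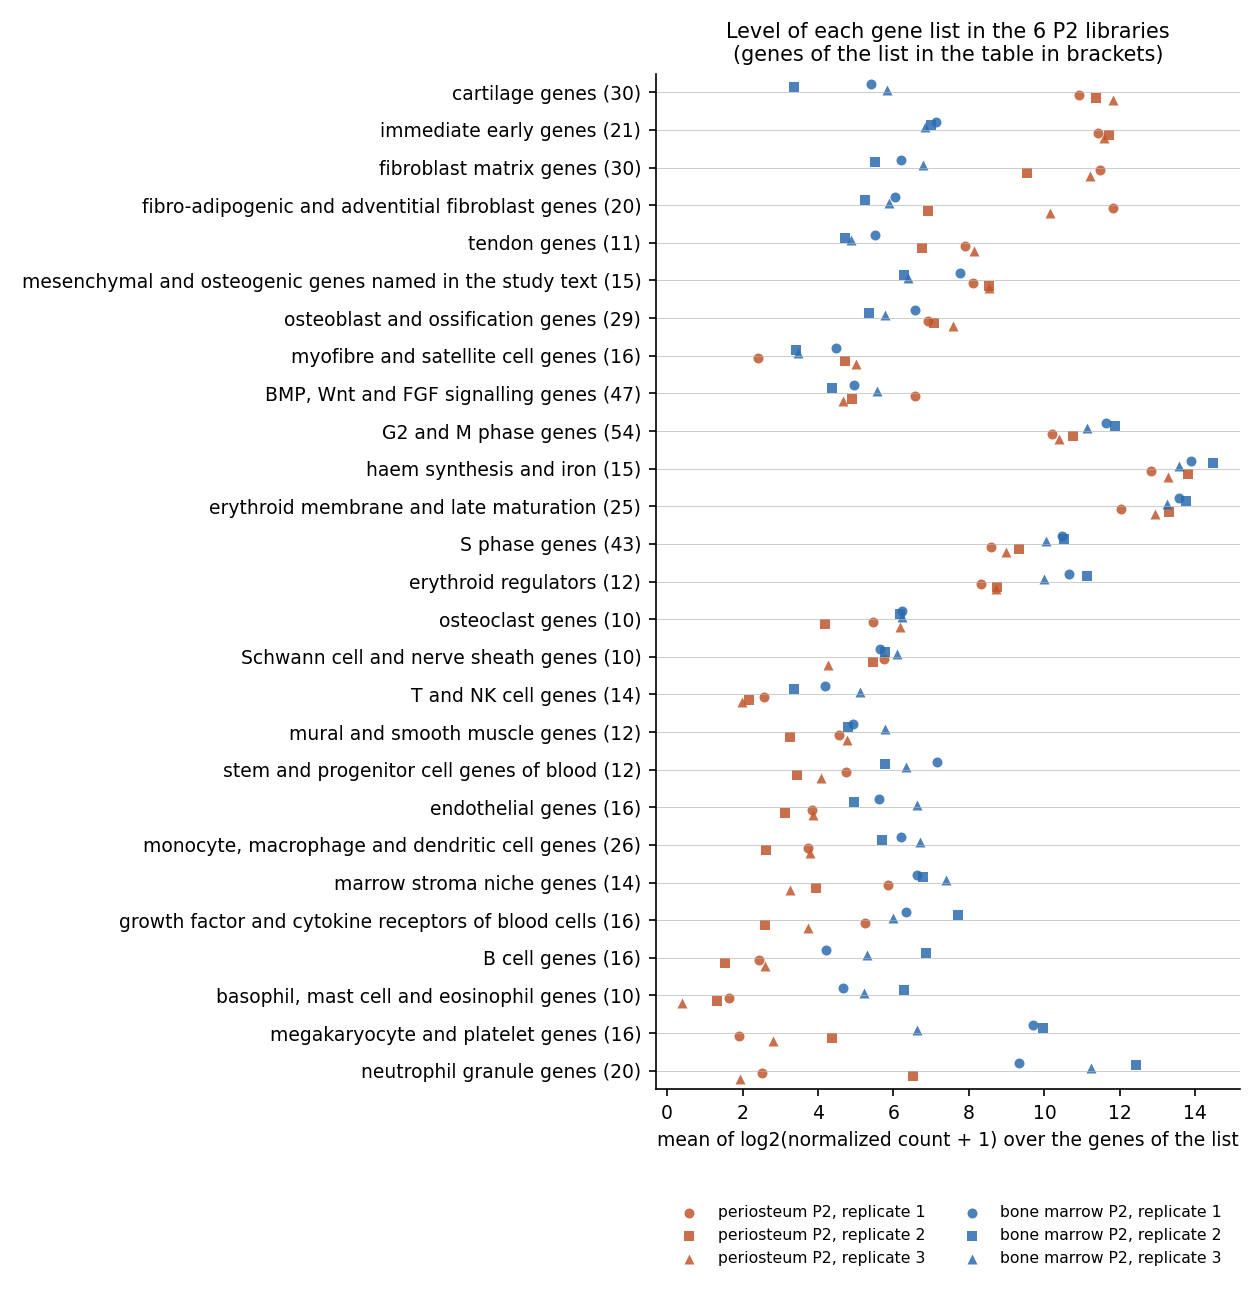
Each row is 1 of 27 gene lists, with the number of its genes in the table in brackets, and each point the mean of log2(normalized count + 1) over those genes in 1 library (periosteum in orange, bone marrow in blue, a marker shape per replicate). Lists are ordered by their median log2 fold change, and cartilage, immediate early and fibroblast matrix genes separate the tissues to the right and neutrophil genes to the left, while periosteum replicate 2 lies apart from the other periosteum libraries for neutrophil and adventitial fibroblast genes.

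Immediate early genes, which cells switch on within minutes of a stimulus or of stress, were higher in periosteum almost as a block. Of 20 tested, 17 were higher, against 2.54% of all genes, none was lower and the median log2 fold change was 4.57, or 4.45 without Fosb, and all 3 periosteum libraries lay above all 3 marrow libraries for 19 of the 20, against 7.91% of all genes tested. Fos, a subunit of the AP-1 factor, was at 23451, 23162 and 27761 in periosteum and at 463, 546 and 980 in marrow (5.29, SE 0.39, adjusted p = 0.00148). Fosb, its close relative, was at 2346, 2715 and 2355 in periosteum and listed at 0 in all 3 marrow libraries. For both genes the 3 periosteum libraries lay close together and far above marrow. Jun was at 6312, 13560 and 14703 against 903, 511 and 154 (4.70, SE 0.69, adjusted p = 0.00665). Egr1, a zinc finger factor induced by growth signals, was at 17181, 25314 and 29155 against 144, 898 and 36.8 (7.10, SE 1.02, adjusted p = 0.00665). Ctgf and Cyr61, secreted matrix proteins that are targets of YAP and of serum response factor, had log2 fold changes of 8.87 (SE 0.52, adjusted p = 0.000777) and 7.81 (SE 0.58, adjusted p = 0.00148). Cyr61 was at 18246, 18414 and 19730 in periosteum and at 171, 86.6 and 38.4 in marrow. Junb, Atf3, Ier2, Ier3, Nr4a1, Klf4, Klf6, Zfp36, Egr2, Dusp1 and Myc also passed, with log2 fold changes from 2.52 for Dusp1 to 8.80 for Nr4a1.

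Jund, Klf2 and Btg2 did not pass. Jund, another AP-1 member, was at 456, 703 and 355 in periosteum and at 1470, 2166 and 560.5 in marrow. Btg2 was at 17951, 20519 and 19012 against 9601, 13998 and 6239, so it was abundant in both tissues. Between 14 and 17 genes of the list were higher in each of the 18 alternative settings. Egr2 passed in 5 of the 18. The periosteum cells had been digested with enzymes at 37°C and the marrow cells had not, and the part of this step in the result was not tested.

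**Figure D3:**
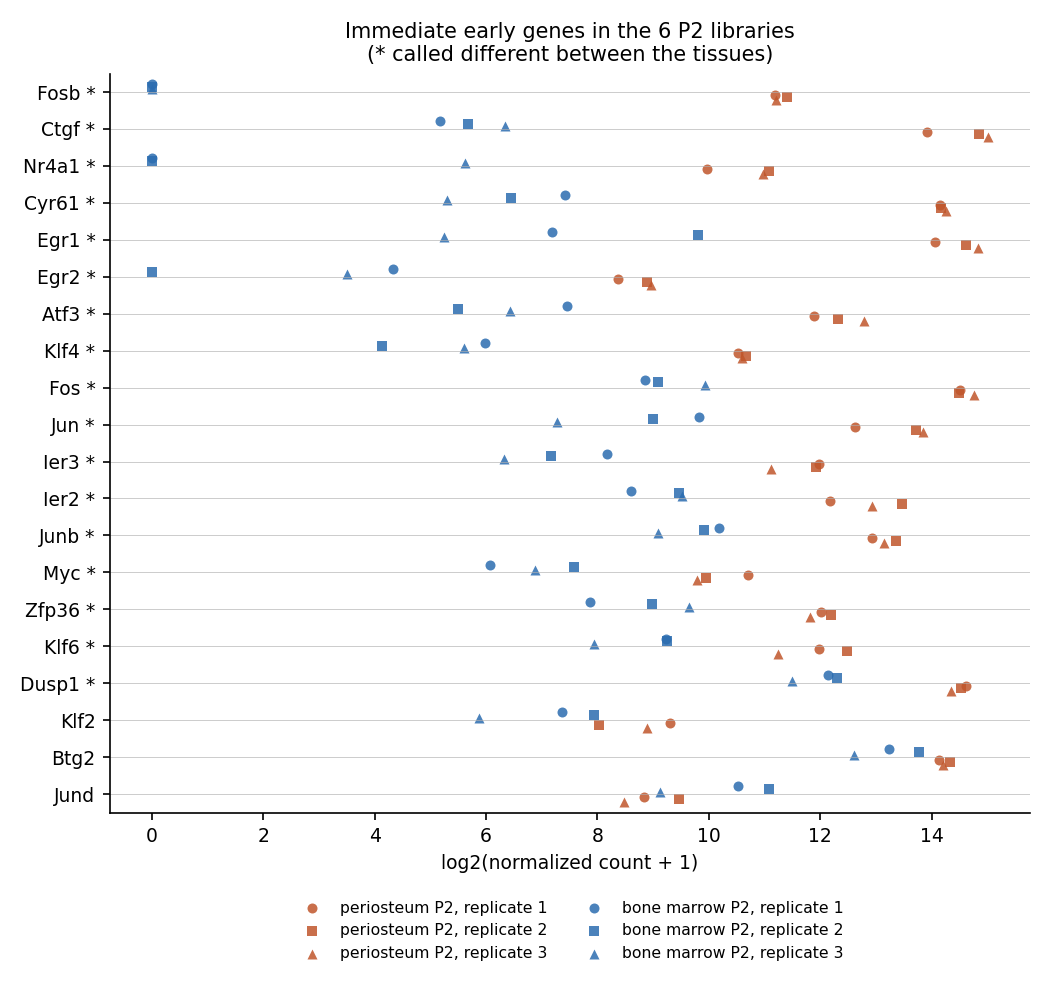
Each row is 1 of the 20 immediate early genes tested and each point its log2(normalized count + 1) in 1 library (periosteum in orange, bone marrow in blue, a marker shape per replicate), with an asterisk for genes called. Periosteum points cluster to the right of the marrow points in every row but Jund, and Fosb is at 0 in all 3 marrow libraries.

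Promoters of these genes were searched because they moved together, in the 250 bases before the start site given by RefSeq on GRCm38.p6. Of the 20 genes tested, 16 were in the promoter table, and Egr1, Ier2, Ctgf and Myc were not. Both strands were searched for the CArG box, bound by serum response factor, for the cAMP response element TGACGTCA, and for the AP-1 sites TGACTCA and TGAGTCA. None of the patterns contains another. The CArG box was in 2 of the 16, Egr2 and Zfp36, against 1.62% of 27025 genes with a promoter, the cAMP response element in 2, Dusp1 and Btg2, against 1.77%, and no AP-1 site was found in the 16, against 5.16%. The stretches that hold a match in 3 called genes are shown 5′ to 3′, with the match in capitals. They are chr10:67537416-67537565 on the plus strand for Egr2, chr7:28379267-28379296 on the minus strand for Zfp36, which lies within an annotated exon, and chr17:26508520-26508622 on the minus strand for Dusp1.
Egr2: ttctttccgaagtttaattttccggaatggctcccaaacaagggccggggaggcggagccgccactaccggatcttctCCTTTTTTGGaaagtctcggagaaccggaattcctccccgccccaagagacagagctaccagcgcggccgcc
Zfp36: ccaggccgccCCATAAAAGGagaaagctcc
Dusp1: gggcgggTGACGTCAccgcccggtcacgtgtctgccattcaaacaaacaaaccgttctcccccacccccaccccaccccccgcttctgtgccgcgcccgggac
The matches begin 72, 58 and 143 bases before the start site. Of these genes, Zfp36, which encodes an RNA-binding protein that shortens the life of inflammatory transcripts, was at 4122, 4694 and 3616 in periosteum and at 231, 507 and 800 in marrow (3.18, SE 0.53, adjusted p = 0.00825). Dusp1, a phosphatase that switches off MAP kinases, was at 25208, 23730 and 20984 against 4536, 5083 and 2896 (2.52, SE 0.34, adjusted p = 0.00665). Egr2 was at 329, 471 and 497 against 19.1, 0 and 10.4 (6.12, SE 1.53, adjusted p = 0.0459).

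Neutrophil genes were the clearest group in the other direction. Of 20 tested, 9 were lower in periosteum, against 6.78% of all genes, none was higher and all 20 had negative fold changes. Of the 9, 5 were listed at 0 throughout periosteum, and among the other 15 genes 4 were lower, against 2.70% of such genes. The 3 periosteum libraries lay below the 3 marrow libraries for 9 of the 20, against 19.7% of all genes. The median was -6.97, or -6.11 over those 15 genes. The called genes included those of the primary granules, which form at the promyelocyte stage. Elane, neutrophil elastase, was at 9855, 38912 and 6581 in marrow and listed at 0 in all 3 periosteum libraries. Prtn3, proteinase 3, was at 1699, 8551 and 918 in marrow and Ctsg, cathepsin G, at 3134, 7158 and 167, and both were likewise listed at 0 in periosteum. Mpo, myeloperoxidase, was at 18.2, 375 and 211 in periosteum and at 18312, 46237 and 3709 in marrow (-6.99, SE 1.27, adjusted p = 0.0112). The other calls were Ms4a3, Mmp8, Mmp9, Retnlg and Ly6g, of which Mmp8, neutrophil collagenase, and Ly6g, the Gr-1 antigen, were listed at 0 in periosteum.

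Several genes of the secondary granules, which appear later in neutrophil development, did not pass, and a single periosteum library stood apart in them. Ngp, neutrophilic granule protein, was at 3.34, 27041 and 1.21 in periosteum and at 443, 38325 and 28151 in marrow. Camp, cathelicidin, was at 0, 6271 and 0 against 81.9, 15895 and 15528. Ltf, lactoferrin, was at 1.68, 5559 and 0 against 274, 8613 and 6687. In all 3 genes, and in Lcn2, S100a8, S100a9, Chil3, Fcnb and Cebpe, periosteum replicate 2 reached the range of the marrow libraries, the other periosteum libraries stayed below, and the gene did not pass. Bone marrow replicate 1 had the lowest marrow values for these genes while it held more Elane, Prtn3 and Ctsg than replicate 3. Without periosteum replicate 2, 17 of the 20 neutrophil genes were lower. Without bone marrow replicate 1 or replicate 2, 5 were.

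**Figure D4:**
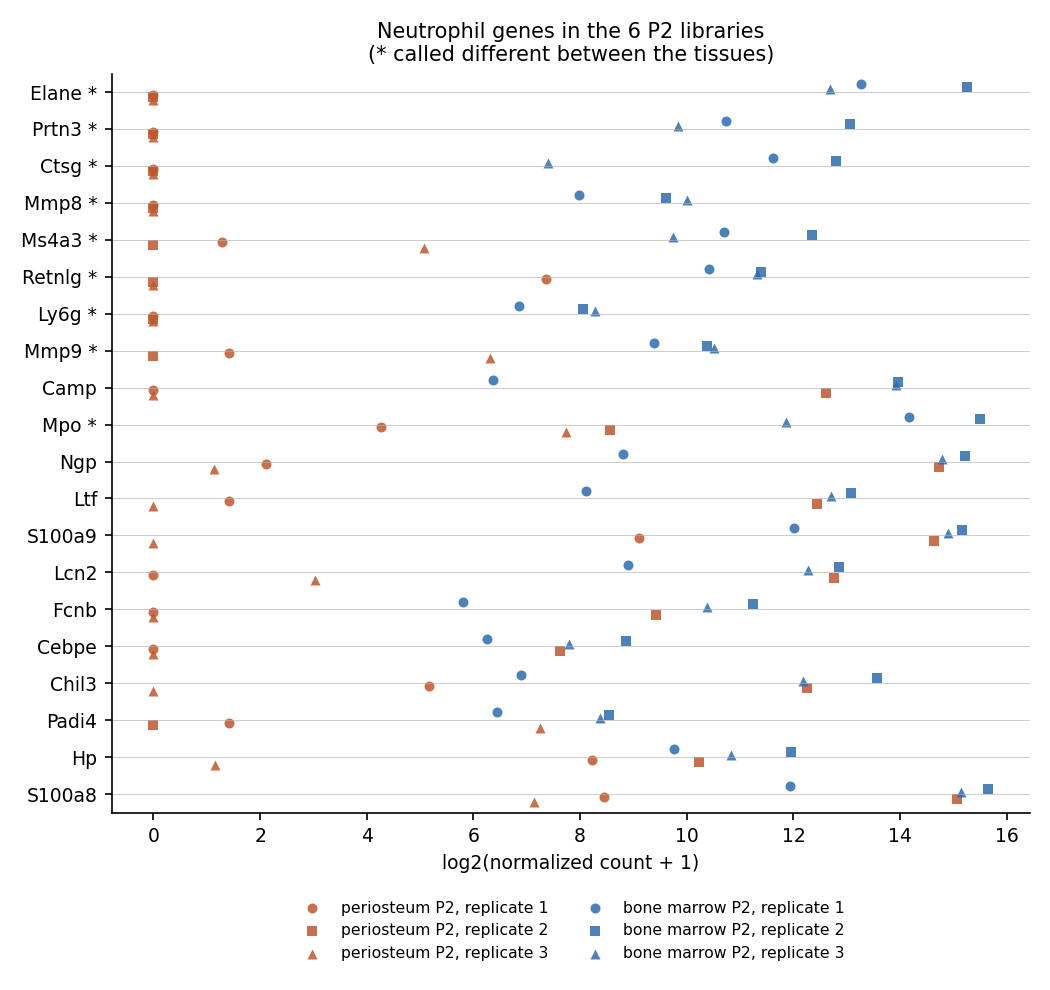
Each row is 1 of the 20 neutrophil genes tested and each point its log2(normalized count + 1) in 1 library (periosteum in orange, bone marrow in blue, a marker shape per replicate), with an asterisk for genes called. For Elane, Prtn3, Ctsg, Mmp8 and Ly6g all 3 periosteum libraries are at 0, while for Ngp, Camp, Ltf, Lcn2 and S100a8 the square of periosteum replicate 2 lies among the marrow points.

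Megakaryocyte and platelet genes were also low in periosteum. Of 14 tested, 6 were lower, against 6.78% of all genes, none was higher and the median was -5.61. Without the 4 listed at 0 throughout periosteum, 2 of 10 were lower, against 2.70% of such genes, and the median was -4.69. Tubb1, the platelet tubulin, was at 1314, 2414 and 309 in marrow, Rgs18, a regulator of platelet signalling, at 525, 1064 and 176 and Gp5, glycoprotein V of the platelet adhesion receptor, at 604, 737 and 67.4, all listed at 0 in periosteum. Clec1b, Treml1 and Vwf completed the calls, with Vwf, von Willebrand factor, at 314, 422 and 114 in periosteum and at 1796, 1811 and 1219 in marrow (-2.67, SE 0.63, adjusted p = 0.0346). Vwf is also made by endothelium. Pf4, platelet factor 4, did not pass, with 40.1, 878 and 0 against 2587, 2967 and 327. Bone marrow replicate 3 was the lowest marrow library for all the genes named here.

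In the other blood lineages few genes passed, and most that did were listed at 0 throughout periosteum. Over all genes tested, 6.78% were lower and 2.54% higher. Among the genes not at 0 throughout either tissue, 2.70% were lower. Of 8 basophil, mast cell and eosinophil genes, 5 were lower, Hdc, Kit, Prss34 and the IgE receptor subunits Ms4a2 and Fcer1a, against 6.78% of all genes. Of these only Hdc, the enzyme that makes histamine, was above 0 in periosteum, which left 1 of 4 genes, against 2.70% of such genes. Of the 8, 2 were called with no filter and 1 with a mean of at least 50 or with quantile normalization. Of 23 monocyte, macrophage and dendritic cell genes, 4 were lower, Ly6c2, Tyrobp, Adgre1 and Ctss. Only Ly6c2 of these was not at 0 throughout periosteum, which left 1 of 20, against 2.70% of such genes. Without periosteum replicate 1, 7 monocyte genes were lower. Ly6c2, a monocyte surface antigen, was at 9.79, 252 and 16.3 in periosteum and at 4347, 14253 and 5480 in marrow (-7.59, SE 1.19, adjusted p = 0.00692). Of 10 stem and progenitor cell genes of blood, Kit and Gfi1, both listed at 0 in periosteum, were lower and Cd34, which fibroblasts and endothelium also carry, was higher, though not when any 1 marrow library was left out. Of 12 growth factor and cytokine receptors of blood cells, Kit and Ccr1 were lower, and 6 were lower without periosteum replicate 1. Of 10 B cell genes 1 was lower, Vpreb3 of the pre-B cell receptor complex, against 6.78% of all genes. Of 9 T and NK cell genes 1 was lower, against the same share. It was Nkg7, a granule protein of cytotoxic cells, at 939, 2662 and 787 in marrow. Vpreb3 and Nkg7 were both listed at 0 in periosteum, and among the other 9 and 8 genes none passed in limma. The B cell count was 0 without bone marrow replicate 3 or periosteum replicate 2 and 2 without periosteum replicate 3, and the T and NK cell count was 2 without periosteum replicate 2. Cd3e, Trac and Gzma were at 0 in all 6 libraries. The 10 genes with the largest change in this direction were Elane, Prtn3, Ctsg, Nkg7, Tubb1, Grk6, Hk3, Slpi, Mmp8 and Rgs18, each listed at 0 in the 3 periosteum libraries.

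Red cell genes filled the P2 libraries of both tissues. Hba-a2, an alpha globin, was at 1190560, 3612411 and 2246217 in periosteum and at 2755359, 4149695 and 2704515 in marrow, and Hbb-bs, a beta globin, at 922600, 2538708 and 1688811 against 2818895, 4163507 and 2647659. Hba-a1 and Hba-a2 are near-identical copies, so reads may be split between them. None of the 4 globins tested passed in limma, with 0 at an unadjusted p below 0.05, and periosteum replicate 1 was the lowest library for each. None of 12 erythroid regulators and none of 15 genes of haem synthesis and iron passed in limma, with 3 and 3 at an unadjusted p below 0.05 and medians of -1.04 and -0.64. Alas2, the first enzyme of haem synthesis in red cells, was at 22699, 77296 and 45101 in periosteum and at 85157, 131137 and 79395 in marrow. Klf1, a master regulator of red cell genes, was at 16.9, 5814 and 1363 against 12506, 10178 and 4844. Of 25 genes of the red cell membrane and late maturation, Aqp1, a water channel, was lower, at 2906, 12160 and 5591 against 28300, 38686 and 18502 (-2.23, SE 0.56, adjusted p = 0.0461) and the median was -0.71. With 1 library left out, 3 of these genes were lower without periosteum replicate 2 and 0 without any other. Over all genes tested, 3394 had an unadjusted p below 0.05.

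Among vascular, nerve and muscle genes few passed, and most of these counts changed when 1 library was left out. The counts are to be read beside 2.54% of all genes higher and 6.78% lower. Among genes not at 0 throughout either tissue, these shares were 2.58% and 2.70%. Of 13 endothelial genes 3 were lower, Esam, Emcn and Vwf, against 6.78% of all genes, but 0 were without any 1 of the marrow libraries, and Emcn changed sign with quantile normalization. Of 11 mural and smooth muscle genes, Mcam was lower, though not when any 1 of the 6 libraries was left out, and Cspg4, the NG2 proteoglycan, was higher, at 1540, 5718 and 4318 in periosteum and at 21.2, 8.45 and 0 in marrow (9.15, SE 1.32, adjusted p = 0.00665). Acta2, Tagln and Myh11, which define smooth muscle, were at most 124 in any of the 6 libraries. Of 8 Schwann cell and nerve sheath genes, S100b, which chondrocytes also make, and Pmp22 were higher and Erbb3 was lower, with 0 higher without bone marrow replicate 1 or 2 and 1 higher without bone marrow replicate 3 or periosteum replicate 2 or 3, while Sox10, the defining factor of the lineage, was at most 5.98. Of 10 myofibre and satellite cell genes, Tnni2, a troponin of fast muscle, was higher, at 87.7, 578 and 393 against 3.20, 0 and 0, and Myh2, listed at 0 in periosteum, was lower, with 0 higher without any 1 marrow library and 2 without periosteum replicate 1. Of 9 osteoclast genes, Ctsk was higher and Mmp9 lower, and neither passed without any 1 marrow library, nor Ctsk without periosteum replicate 2 or 3 or Mmp9 without replicate 1. Dcstamp was at 0 throughout. None of 4 sex chromosome genes passed in limma, with 0 at an unadjusted p below 0.05. The medians of the endothelial, mural, Schwann cell, myofibre and osteoclast lists were -2.03, -1.86, -1.40, 0.99 and -1.08.

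Proliferation genes were abundant in both tissues. Of 43 S phase genes 3 were lower in periosteum, Cdca7, Exo1 and Clspn, and of 54 G2 and M phase genes 4 were lower, Pimreg, Kif20b, Psrc1 and Ctcf, with none higher and medians of -0.96 and -0.58 beside -1.02 for all genes. Both counts were close to the 6.78% of all genes that were lower. Without genes at 0 throughout a tissue, 3 of 43 S phase genes and 3 of 53 G2 and M phase genes were lower, against 2.70% of such genes. The S phase count was 0 without any 1 marrow library and 7 without periosteum replicate 2, and the G2 and M phase count 1 without bone marrow replicate 1. Mki67, a protein of cycling cells, was at 7187, 12263 and 13076 in periosteum and at 28231, 22863 and 16912 in marrow, without overlap but not called. Pcna, the sliding clamp of replication, was at 5183, 9652 and 6458 against 8154, 10317 and 5071, overlapping. Of 38 genes of BMP, Wnt and FGF signalling, Id3 and Fgfr1 were higher, against 2.54% of all genes, with 4 higher without periosteum replicate 1 and 6 without replicate 2. Id3, a target of BMP signals, was at 3544, 2017 and 2482 against 285, 104 and 53.5 (4.47, SE 0.71, adjusted p = 0.00695). Fgfr1, a fibroblast growth factor receptor, was at 2536, 2670 and 2531 against 209, 29.5 and 195 (4.58, SE 0.81, adjusted p = 0.0101). Neither gene overlapped between the tissues, and Fgfr1 varied little among the periosteum libraries.

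To ask what was particular to P2, the tissue difference in P2 was tested against the mean of the tissue differences in P1 and P3 over 18 libraries. It differed for 890 of 17733 genes (5.02%), being more positive in P2 for 273 (1.54%) and more negative for 617 (3.48%), with a median difference of -0.57 over all genes. A large tissue difference in P1 or in P3 alone can give such a call, so a call does not show that P2 differed from both. Without periosteum replicate 1 the count was 1528, of which 1165 were negative, and without bone marrow replicate 3 there were 387 negative genes. Of 25 genes of the red cell membrane and late maturation, 5 were positive and 0 negative. None was called among the globins, the erythroid regulators and the genes of haem synthesis and iron. Of 30 fibroblast matrix genes tested here, 12 were positive and 1 negative, and of 20 immediate early genes 6 were positive and 0 negative. Of 30 cartilage genes, 3 were positive and 0 negative. The cartilage genes were Col2a1, Col11a1 and Col11a2. Col2a1 differed by 8.72 (SE 1.15, adjusted p = 0.00037), and its group means were 165576 in periosteum and 134878 in marrow for P1 and 52665 and 3014 for P3. For Col9a1 the difference was 1.12 (SE 1.21, adjusted p = 0.692), with group means of 8116 and 83.2 in P1 and of 1939 and 1.57 in P3, so that the periosteum excess of this gene was not shown to be larger in P2.

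Sparc differed by 6.40 (SE 0.31, adjusted p = 2.56e-09). Its tissue log2 fold change was 7.13 in P2, -0.91 in P1 and 2.36 in P3, and its marrow means were 566055 in P1 and 14398 in P3, while the 3 marrow P2 libraries held 449 to 611. Ctgf differed by 7.02 (SE 0.58, adjusted p = 8.2e-06) and Cyr61 by 6.22 (SE 0.73, adjusted p = 0.000182), and their marrow means were 4975 and 21059 in P1. For Fos the difference was 2.89 (SE 0.59, adjusted p = 0.00754), and its group means in P1 were 43512 in periosteum and 13324 in marrow. Atf3 did not differ from the other fractions beyond its error (-0.32, SE 1.26, adjusted p = 0.929). None of 20 neutrophil genes was positive and 1, Mmp9, was negative, so for the other 19 no difference from P1 and P3 was called. Elane, for example, had means of 0 in periosteum and 4196 in marrow of P3.

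**Figure D5:**
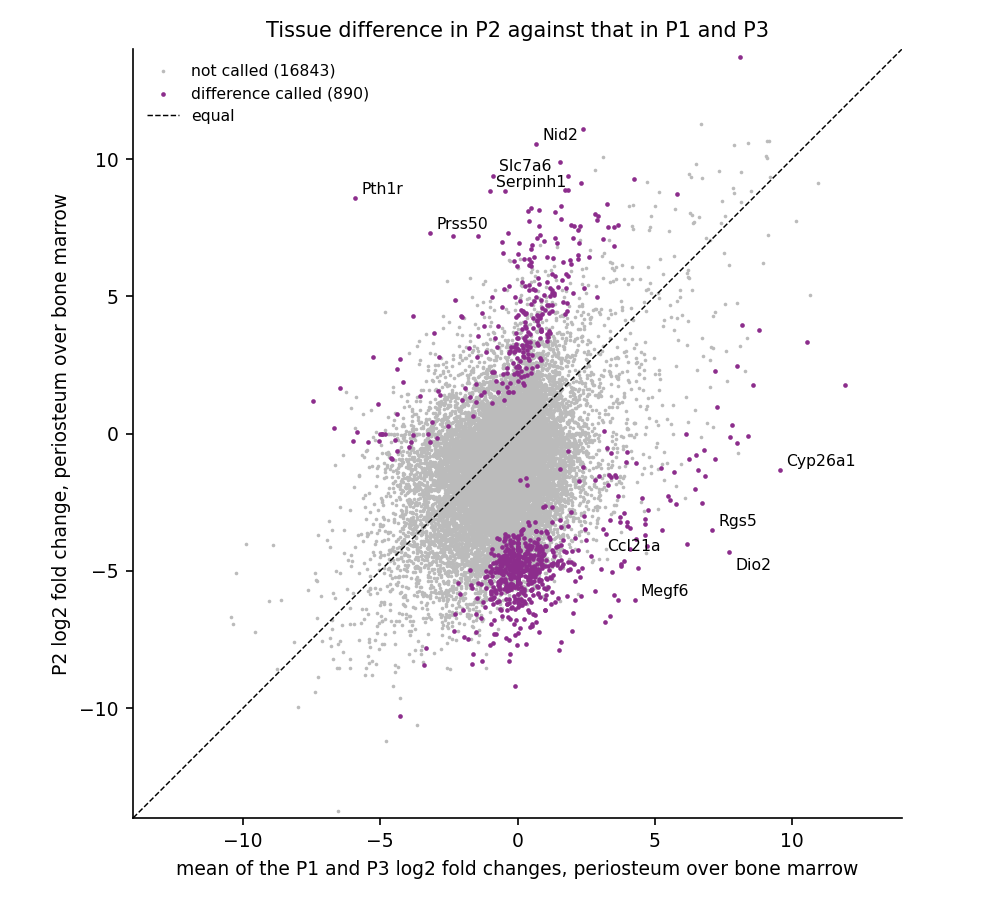
Each point is 1 of 17733 genes, with the mean of its P1 and P3 log2 fold changes (periosteum over bone marrow) on the x axis and its P2 log2 fold change on the y axis, and purple marks the 890 genes whose P2 difference was called. Points on the dashed line have equal values, and labelled genes such as Pth1r (difference 14.47) and Dio2 (-12.00) lie farthest from it above and below.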

How the data were processed

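The authors trimmed SMART-Seq v4 and Nextera XT libraries with Trim Galore, used STAR for alignment and DESeq2 for normalization, and deposited 1 table of normalized counts (a signal unit, not whole reads). The genome build, annotation and counter are not given in the sources used here. Of the values under 100, 18.3% to 47.3% per library lay within 0.05 of a whole multiple of the commonest low value, so reads were not recovered, depth is unknown and no counting error is given.

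Groups came from the sample titles. Values were taken as log2(normalized count + 1), genes with at least 10 in at least 3 of the 6 P2 libraries were kept, and limma 3.58.1 in R 4.3.3 (lmFit, eBayes with trend) compared 3 periosteum with 3 bone marrow libraries. Called genes had a Benjamini-Hochberg adjusted p below 0.05 over all genes and an absolute log2 fold change above 1.5. The same model over 18 libraries tested the P2 difference against the mean of P1 and P3. The script was tested on simulated data, where limma at 3 against 3 recovered only part of the changed genes. A gene that did not pass may therefore still differ.

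The comparison and the gene lists were chosen with earlier results of these data known. Named genes were the sort markers, the genes the study text names, the 10 largest non-overlapping changes in each direction with a mean of at least 100, the 4 most abundant genes of a list and the 5 largest differences from P1 and P3 in each direction. Other members named were chosen after their values were seen. Alternatives were pseudocounts of 0.1 and 5, filters, scalings, eBayes without trend, array weights, a fold threshold of 1, all 27 libraries, a replicate block and leaving out each library. Promoter sequences are from RefSeq. Some genes are not reported here.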

Additional observations from a re-analysis of the deposited data

Results flagged for a closer look

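The tissue difference in P2 cells was set against the mean of those in P1 and P3 cells with a limma interaction term, and it differed for 890 genes. The 5 largest differences in each direction among genes with a mean of at least 100 in some group were as follows. Pth1r, the parathyroid hormone receptor, differed by 14.47, with group means of 764 in periosteum and 13582 in marrow for P1 and 8.10 and 536 for P3, while in P2 all 3 periosteum libraries were above marrow. Prss50, a protease, differed by 10.49, with means of 4.25 and 425 in P3. Slc7a6, an amino acid transporter, differed by 10.29 and was listed at 0 in the 3 marrow P2 libraries against 444, 592 and 1158 in periosteum P2. Nid2 differed by 9.86. Serpinh1, the collagen chaperone HSP47, differed by 9.85, at 1065, 2782 and 2663 in periosteum P2 and 81.3, 0 and 0 in marrow P2, with P1 means of 4857 and 36529.

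In the other direction, Dio2, a deiodinase that activates thyroid hormone, differed by -12.00, with P1 means of 1189 in periosteum and 9.95 in marrow. Cyp26a1, which degrades retinoic acid, differed by -10.89, with P1 means of 1213 and 0 and values of 0 in the 3 periosteum P2 libraries. Rgs5, a pericyte gene, differed by -10.60, with P3 means of 1122 and 7.81. Megf6 differed by -10.32, at 5.01, 2.05 and 0 in periosteum P2 and 332, 80.3 and 199 in marrow P2. Ccl21a, a chemokine of lymphatic vessels, differed by -10.20, with P3 means of 3309 in periosteum and 0.911 in marrow. Of the genes named in this direction, only Megf6 was called in the P2 comparison itself. Groups of 3 libraries are too small for the test of single outlying libraries.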

How the results depend on the processing

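The 1453 calls (396 higher, 1057 lower) became 376 (206 and 170) with no filter, 374 (268 and 106) with a mean of at least 50, 3093 (834 and 2259) with all 27 libraries and 639 (423 and 216) with quantile normalization. Leaving out 1 library gave 1032 to 2354 calls, 222 to 463 higher and 810 to 1932 lower. The 890 differences from P1 and P3 became 1396 (1113 negative) with no filter, 412 (174 negative) with a mean of at least 50, 1478 (445 positive, 1033 negative) with all 27 libraries and 532 (200 negative) with quantile normalization. With the same total per library 411 were negative. Leaving out 1 library gave 594 to 1528, with 203 to 363 positive and 387 to 1165 negative. The neutrophil genes called lower were 16 with all 27 libraries and 5 to 17 with 1 library left out, and the megakaryocyte genes 10 and 4 to 9. The cause was not tested. The share of calls that were higher was 27.3%, and 54.8%, 71.7% and 66.2% with no filter, a mean of at least 50 and quantile normalization.

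With quantile normalization the sign changed for Emcn (0.65), Eng (1.31), Cd200 (0.95) and Calcr (1.63) and for the medians of the sort marker (1.13), T and NK cell (0.58), endothelial (0.32) and Schwann cell (0.22) lists. It also changed for Eng with the same total (0.091), gene Dmp1 (-1.05) and gene Postn (-0.70) with array weights, and the myofibre median with no filter (-0.20). With 1 library left out, Eng ranged from -1.13 to 1.06, Calcr from -1.95 to 0.59, Ibsp from -1.82 to 0.37 and the osteoclast median from -1.95 to 0.064. Emcn was the only one of these genes called.

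Whether the shared replicate numbers pair the libraries is not known. Residuals of same-numbered libraries correlated at 0.0036, 0.023 and -0.0073. Those of the other pairs ran from -0.027 to 0.026, so these values cannot decide it. With a replicate block 1234 genes were called (336 higher, 898 lower), and 830 differed from P1 and P3. Depth is unknown, so a value listed at 0 sets no limit.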

Other observations

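Families below were looked up after the values were seen. Ribosomal protein genes, which build the translation machinery, were called higher in periosteum P2 for 9 of 83 tested, against 2.54% of all genes, and lower for 0, with a median log2 fold change of 1.23 beside -1.02 for all genes. Their summed level was 239753, 366031 and 340327 in periosteum and 140457, 186450 and 90509.8 in marrow, so the tissues did not overlap. Processed copies of ribosomal protein genes share sequence with them, and reads may be split between copies. Of 43 collagen genes tested, 17 were higher, against the same 2.54%, and 0 lower, with a median of 1.22, and their summed level was 447256, 780038 and 988814 in periosteum against 13897, 5856 and 13398 in marrow.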
